A study of Homo sapiens with 12 samples.

Results

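The vascular endothelial growth factor (VEGF) and platelet-derived growth factor (PDGF) genes were followed through a miR-29 experiment in 3 human renal cell carcinoma lines. The 9 genes were taken by symbol from the 58051 genes of each count table: the VEGF family ligands VEGFA, VEGFB, VEGFC and PGF, the PDGF ligands PDGFA, PDGFB, PDGFC and PDGFD, and the PDGF receptor PDGFRB. The rule lists them by name and sets no threshold on a measured value, but the list was chosen with earlier results of these data known. On GRCh38 (GENCODE v44), the VEGF family genes are VEGFA (ENSG00000112715, chr6:43770184-43786487, plus strand), VEGFB (ENSG00000173511, chr11:64234584-64239264, plus strand), VEGFC (ENSG00000150630, chr4:176683538-176792922, minus strand) and PGF (ENSG00000119630, chr14:74941834-74955626, minus strand). The PDGF genes, all on the minus strand, are PDGFA (ENSG00000197461, chr7:497258-520296), PDGFB (ENSG00000100311, chr22:39223359-39244982), PDGFC (ENSG00000145431, chr4:156760454-156971799), PDGFD (ENSG00000170962, chr11:103907189-104164379) and PDGFRB (ENSG00000113721, chr5:150113839-150155872). RNA was sequenced from 12 libraries. In 786-O, 1 culture received 10 nM of a miR-29 mimic, a double-stranded RNA built to act as the mature miRNA, and 1 received 10 nM of a control mimic. In A-498 the same treatments were given to 2 cultures each. In ACHN, 3 cultures received 10 nM of a miR-29 inhibitor, an oligonucleotide that blocks the endogenous miRNA, and 3 received 10 nM of a control inhibitor. All oligonucleotides were delivered by lipid transfection and RNA was extracted at 48 h. The lines carry no engineered allele, and the labels name the oligonucleotides only as miR-29. A supplementary legend of the study calls the mimic used in 786-O a miR-29b mimic. The study describes the libraries of A-498 and ACHN as biological replicates, and p-values measure the spread between these libraries. A further pair of A-498 libraries, which the study set aside for potential mislabelling, was not analysed here.

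The ligands of both families are cystine-knot proteins that act as dimers on receptor tyrosine kinases. VEGFA drives the growth of blood vessels, VEGFC that of lymphatic vessels, and the PDGF ligands recruit and expand pericytes, fibroblasts and other stromal cells. Clear cell renal carcinoma is known for abundant VEGFA and a dense vasculature, since loss of the VHL tumour suppressor leaves hypoxia-inducible factors active. VHL is known to be lost in 786-O and A-498 and intact in ACHN. The miR-29 family is best known for lowering collagens and other matrix proteins, and a miRNA finds its targets chiefly by pairing of its seed, nucleotides 2 to 8, with the 3′ UTR of the mRNA.

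The 3 mature miR-29 sequences (RefSeq, GRCh38.p14) are shown first because their shared seed, in capitals, defines the letters searched for in the 9 genes.

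hsa-miR-29a-3p: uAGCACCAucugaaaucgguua

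hsa-miR-29b-3p: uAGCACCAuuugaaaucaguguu

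hsa-miR-29c-3p: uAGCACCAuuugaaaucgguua

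The longest 3′ UTR of each gene in GENCODE v44 (GRCh38) was searched on the transcript's own strand for TGGTGCT, which pairs with nucleotides 2 to 8 (7mer-m8), for the same letters followed by A (TGGTGCTA, 8mer), and for GGTGCTA where it was not part of an 8mer (7mer-A1). Of the 9 genes, 5 held 1 match each and 4 held none. Of 19222 protein-coding genes searched in the same way, 15.04% held a match to nucleotides 2 to 8 and 17.84% held any of the 3 kinds. The 5 stretches that hold a match are printed because they place the seed pairing in each gene, with the match in capitals and each stretch read 5′ to 3′ on the strand of its gene.

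VEGFA: atttgttatcatttatttatTGGTGCTAct

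PDGFB: tgcctgattcggacggccaaTGGTGCTtcc

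PDGFC: acatgtatttcattctcgtaTGGTGCTAga

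PDGFD: tatacttagatttctaagtaTGGTGCTctc

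PDGFRB: aaagattttaatattaaaccTGGTGCTtct

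The VEGFA stretch lies at chr6:43786284-43786313 on the plus strand, and its 8mer starts 1742 nt after the stop codon in a 3′ UTR of 1925 nt. Only 5 of the 15 coding transcripts of VEGFA carry it. The PDGFB stretch (chr22:39225201-39225230, minus strand) holds a 7mer-m8 only 132 nt after the stop codon, in a UTR of 1983 nt. In PDGFC the 8mer starts at 937 of 2636 nt (chr4:156762144-156762173, minus strand). In PDGFD the 7mer-m8 starts at 1666 of 2505 nt (chr11:103908019-103908048, minus strand). In PDGFRB the 7mer-m8 starts at 1907 of 1924 nt, at the far end of the UTR (chr5:150113847-150113876, minus strand). No match was found in the 3′ UTRs of VEGFB (931 nt), VEGFC (388 nt), PGF (872 nt) or PDGFA (1306 nt). A match is a description of the annotated sequence and does not show which 3′ ends these cells use.

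**Figure D1:**
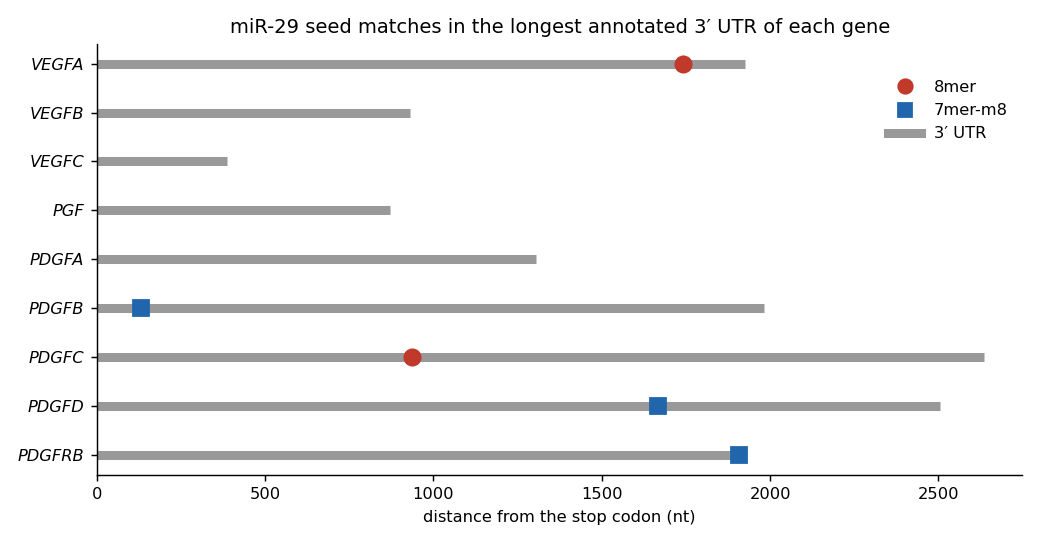
Position of miR-29 seed matches along the longest annotated 3′ UTR of each gene, in nt from the stop codon (grey bars are the UTRs, circles 8mers and squares 7mer-m8 matches). Of the 9 genes, 5 hold 1 match each, from 132 nt after the stop codon in PDGFB to 1907 nt in PDGFRB.

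Depth ranged from 39919554 to 70027392 reads in genes per library. All 5 known miR-29 targets used as a label check (COL1A1, COL4A1, COL4A2, LAMC1 and SPARC) fell with the mimic in A-498 and rose with the inhibitor in ACHN (edgeR, adjusted p under 0.05), and all 5 were more than 1.5-fold lower in the 786-O mimic library. Their summed level went from 3973–4060 to 996–1001 CPM (counts scaled to library size) in A-498, from 2380–2647 to 5927–6638 CPM in ACHN and from 1892 to 472 CPM in 786-O. Of 7 renal epithelial tumour markers, 6 were at 1 CPM or more in both 786-O libraries, 7 in all A-498 libraries and 5 in all ACHN libraries. CA9 was at 0.313 CPM or less in 786-O and at 0.166 CPM or less in ACHN, and CDH6 was at 0.324 CPM or less in ACHN. In these bulk samples, fewer cells that express a gene and less RNA per cell cannot be told apart.

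The levels under the control oligonucleotides were compared first. They are given per kb of exon (RPKM, over the union of annotated exons), so that genes can be ordered within a line. In A-498, VEGFA was the highest of the 9 at 27.5 ± 0.776 RPKM (SD, n = 2), followed by PDGFC at 12.4 ± 0.0911. PDGFA stood at 9.19 ± 0.187, VEGFB at 7.40 ± 0.600, VEGFC at 4.51 ± 0.268 and PDGFB at 4.39 ± 0.0863 RPKM. The order of VEGFC and PDGFB was within their spread. PDGFD (1.66 ± 0.0323), PDGFRB (0.219 ± 0.00833) and PGF (0.050 ± 0.0154) were the lowest. In ACHN, PDGFC was the highest at 28.7 ± 0.669 RPKM (SD, n = 3), and PDGFB followed at 8.48 ± 0.456, VEGFB at 6.90 ± 0.205 and PDGFA at 5.54 ± 0.217. VEGFA (3.87 ± 0.134) and VEGFC (3.72 ± 0.273) had overlapping libraries there, as did PGF (0.541 ± 0.101) and PDGFD (0.415 ± 0.0676), and PDGFRB was last at 0.203 ± 0.0202 RPKM. In the single 786-O control library, VEGFB (16.4 RPKM), PDGFC (14.5) and PDGFB (14.3) led, VEGFC (9.37), VEGFA (6.88) and PDGFA (4.30) followed, PDGFRB (0.771) and PGF (0.289) were low, and PDGFD had 0 reads, which allows at most 3 reads.

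Several places in this order rest on the length used. The VEGFA exon union of 14431 nt is much longer than its canonical transcript of 3609 nt. With canonical transcript lengths, a choice made after seeing the data, VEGFA stood at 27.5 RPKM and first in 786-O, at 110.0 RPKM and first in A-498, and at 15.5 RPKM and at rank 2 in ACHN. In 786-O, VEGFB then moved from rank 1 to 3, PDGFB from 3 to 4 and VEGFC from 4 to 5. In ACHN, PDGFB moved from rank 2 to 4, VEGFB from 3 to 5 and PDGFA from 4 to 3. The order in A-498 stayed as given.

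**Figure D2:**
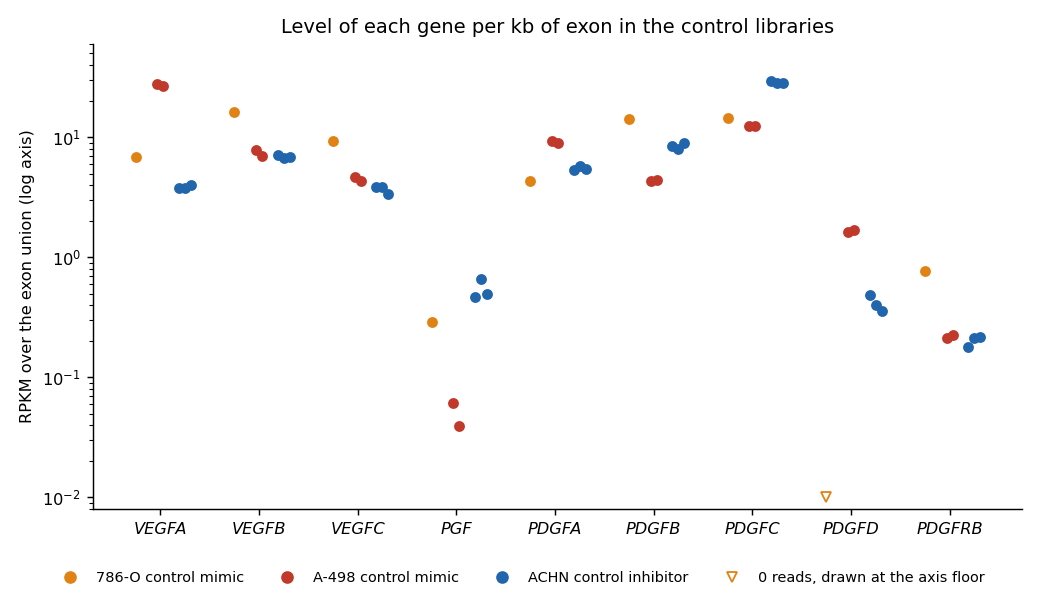
RPKM of the 9 genes in the 6 control libraries (log axis), 1 point per library, coloured by line. VEGFA is highest in A-498 (27.5 RPKM on average) and PDGFC in ACHN (28.7 RPKM), and PDGFD of 786-O, with 0 reads, is drawn at the axis floor.

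Between lines, 4 of the 9 genes were higher in the A-498 than in the ACHN controls, 3 were lower and 2 did not pass the test (edgeR quasi-likelihood test, two-sided, Benjamini-Hochberg adjusted p under 0.05). Among all 19689 genes tested, 41.0% were called higher and 38.7% lower, so both shares of the 9 genes were near those of all genes. A-498 received a control mimic and ACHN a control inhibitor, so the line and the kind of control oligonucleotide cannot be told apart. VEGFA was 7.21-fold higher in A-498, with 28.1 and 27.0 RPKM against 3.80, 3.78 and 4.02 RPKM in ACHN (log2 difference 2.85, SE 0.0393, adjusted p = 1.33e-22 in edgeR). PDGFD, the PDGF ligand that is cut outside the cell before it binds PDGFRB, was 4.03-fold higher in A-498 (log2 difference 2.01, adjusted p = 9.35e-12), and PDGFA 1.68-fold (0.75, adjusted p = 1.69e-10). VEGFC was higher by 0.29 on the log2 scale (adjusted p = 0.00188). PGF, the placental growth factor that binds the VEGF receptor FLT1, was lower in A-498, with 0.0609 and 0.0391 RPKM against 0.470, 0.657 and 0.495 RPKM in ACHN (log2 difference -3.42, SE 0.25, adjusted p = 9.88e-11). PDGFC (-1.19, adjusted p = 2.76e-16) and PDGFB (-0.93, adjusted p = 1.33e-11) were also lower in A-498. For VEGFB the log2 difference was 0.12 (95% interval -0.02 to 0.26, adjusted p = 0.115) and for PDGFRB 0.14 (-0.24 to 0.51, adjusted p = 0.493). The single 786-O control library stood above every A-498 and ACHN control library for VEGFB, VEGFC, PDGFB and PDGFRB, and below every one of them for PDGFA and PDGFD.

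In A-498, the miR-29 mimic was followed by lower levels of 7 of the 9 genes, a higher level of PGF, and no call for VEGFC. Among all 19676 genes tested, 27.0% were called lower and 25.5% higher. The median log2 change was -0.45 over the 9 genes and 0.00455 over all genes tested. Without regard to a test, the mimic libraries lay all below the controls in 37.3% and all above them in 37.2% of these genes. The levels below are CPM with TMM scaling within the line, the control libraries being replicates 1 and 3 and the mimic libraries replicates 1 and 2.

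Of the VEGF ligands, VEGFA moved most in read numbers. Its level was 425 and 409 CPM in the control libraries and 248 and 241 CPM in the mimic libraries. The groups did not overlap, and VEGFA fell by 0.77 on the log2 scale (SE 0.0372, adjusted p = 5.71e-10), a mimic to control ratio of 0.586. With the mimic, A-498 still held more VEGFA CPM than any 786-O or ACHN library. VEGFB, a ligand of FLT1 that is linked to lipid handling in muscle and heart, had 16.2 and 14.4 CPM in control and 11.8 and 11.3 CPM in mimic libraries, and fell by 0.40 (SE 0.0778, adjusted p = 0.000539). VEGFC showed overlapping groups, with 12.9 and 11.9 CPM in control and 13.5 and 12.2 CPM in mimic libraries (log2 change 0.06, 95% interval -0.11 to 0.23, adjusted p = 0.576). PGF was scarce, with 20 and 14 reads in control and 47 and 58 reads in mimic libraries, or 0.371 and 0.238 against 0.746 and 1.01 CPM. It rose by 1.53 on the log2 scale (SE 0.306, adjusted p = 0.000751), and both mimic libraries were above both controls.

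All 4 PDGF ligands fell in A-498. PDGFA, the chief ligand of PDGFRA, had 44.9 and 43.7 CPM in control and 25.1 and 27.5 CPM in mimic libraries (log2 change -0.75, SE 0.0578, adjusted p = 7.28e-08). PDGFB, which binds both PDGF receptors and recruits pericytes, had 18.2 and 18.7 CPM in control and 14.1 and 15.2 CPM in mimic libraries (-0.33, SE 0.0686, adjusted p = 0.000901), the smallest change of the 4. PDGFC, like PDGFD released as a latent form that proteases activate, went from 77.7 and 78.5 to 56.8 and 57.7 CPM (-0.45, SE 0.0443, adjusted p = 9.79e-07). PDGFD went from 7.35 and 7.55 to 2.63 and 2.60 CPM (-1.51, SE 0.105, adjusted p = 2.50e-08), the largest change of the 4. In each of these genes both mimic libraries were below both controls, as in 37.3% of all genes tested. The receptor PDGFRB was low throughout, at 1.60 and 1.68 CPM in control and 0.603 and 0.540 CPM in mimic libraries, from 86 and 99 against 38 and 31 reads. It fell by 1.51 (SE 0.204, adjusted p = 2.21e-05), with no overlap of the groups.

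**Figure D3:**
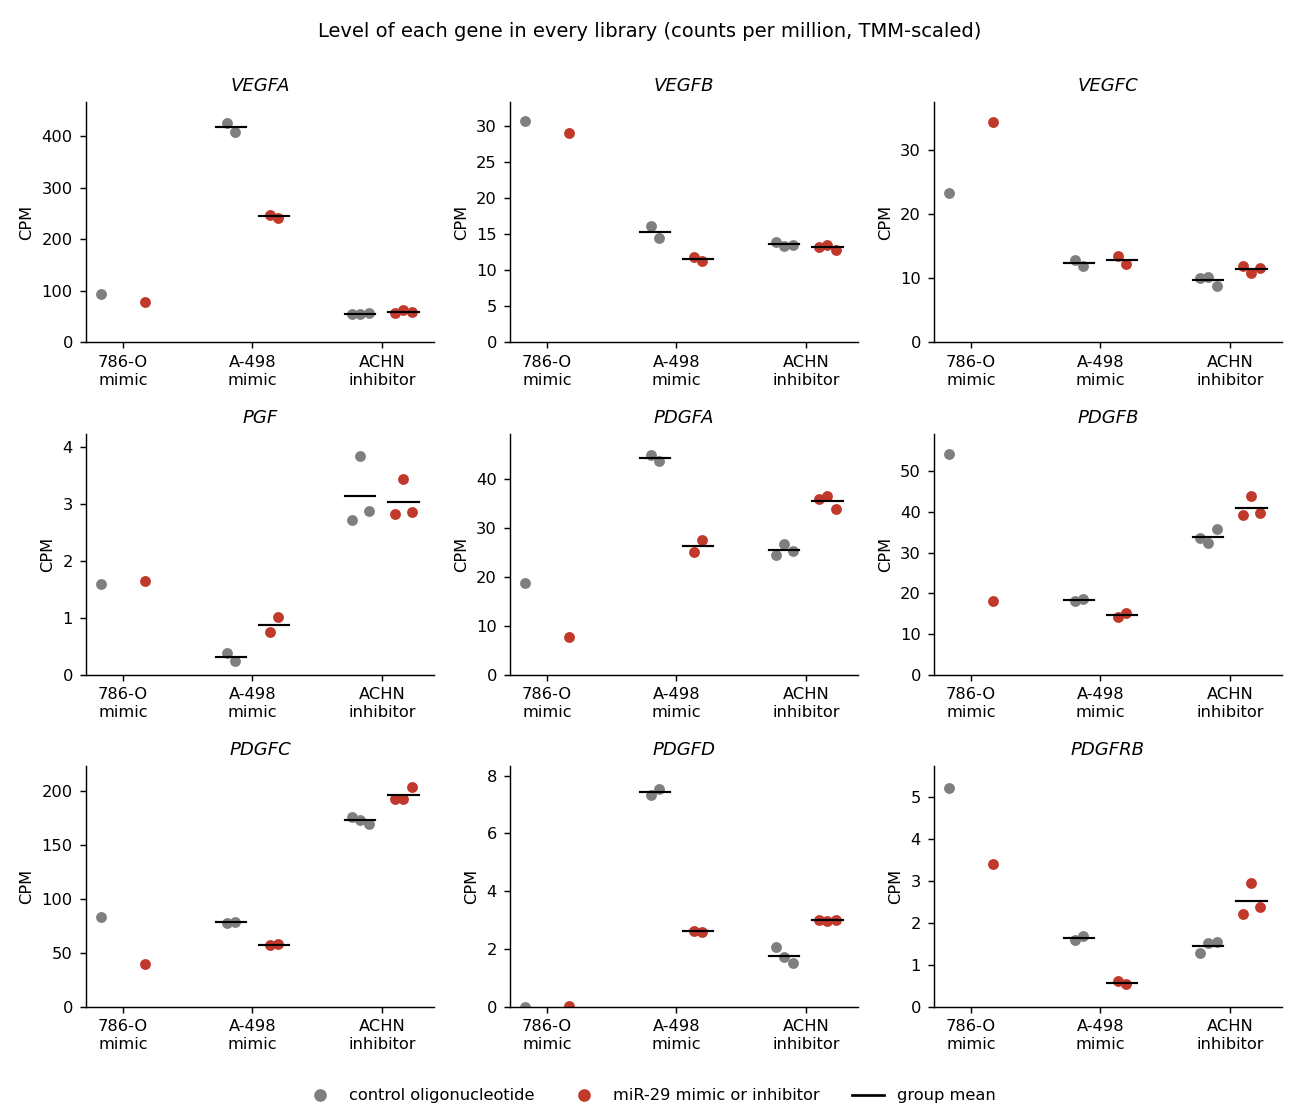
CPM of each gene in every library, with control libraries in grey, miR-29 mimic (786-O, A-498) or inhibitor (ACHN) libraries in red, and bars at group means where a group has more than 1 library. The 5 PDGF genes are lower in mimic-treated A-498 and higher in inhibitor-treated ACHN with no overlap of groups, which holds for 14.4% of the genes tested in both lines, and VEGFA drops from 425 and 409 to 248 and 241 CPM in A-498 while its ACHN groups overlap.

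In ACHN, the miR-29 inhibitor was followed by higher levels of 6 of the 9 genes and lower levels of 0 of them, and 3 were not called (edgeR, with 0 lower also at an unadjusted p under 0.05 and in DESeq2). Among all 17904 genes tested, 17.3% were called higher and 14.4% lower. The median log2 change was 0.24 over the 9 genes and 0.00378 over all genes tested. The 3 genes without a call were all of the VEGF family. VEGFA had 54.6, 55.0 and 58.0 CPM in control and 56.9, 63.8 and 58.2 CPM in inhibitor libraries, with overlapping groups (log2 change 0.09, 95% interval -0.01 to 0.19, adjusted p = 0.162). VEGFB also overlapped, at 14.0, 13.4 and 13.5 against 13.2, 13.6 and 12.8 CPM (-0.05, interval -0.18 to 0.09, adjusted p = 0.643). PGF had 2.71, 3.84 and 2.87 CPM in control and 2.83, 3.43 and 2.86 CPM in inhibitor libraries (-0.05, interval -0.34 to 0.23, adjusted p = 0.816). VEGFC had 10.0, 10.3 and 8.90 CPM in control and 11.9, 10.9 and 11.7 CPM in inhibitor libraries, and rose by 0.24 (SE 0.0766, adjusted p = 0.0226) without overlap. The call for VEGFC was lost when control replicate 3, inhibitor replicate 1 or inhibitor replicate 3 was left out, with log2 changes of 0.18, 0.20 and 0.23 and adjusted p of 0.152, 0.102 and 0.0709 in edgeR.

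The PDGF ligands all rose in ACHN. PDGFA went from 24.4, 26.7 and 25.2 to 35.9, 36.5 and 33.8 CPM (log2 change 0.48, SE 0.0533, adjusted p = 1.75e-06). PDGFB went from 33.6, 32.3 and 35.7 to 39.2, 44 and 39.8 CPM (0.28, SE 0.0545, adjusted p = 0.000722). PDGFC, the most abundant of the 9 in this line, went from 176, 173 and 169 to 192, 192 and 204 CPM (0.19, SE 0.0431, adjusted p = 0.00278). In all 3 genes each inhibitor library was above each control library, as in 22.8% of all genes tested. PDGFD went from 2.08, 1.71 and 1.52 to 3.02, 2.95 and 3.0 CPM (0.75, SE 0.131, adjusted p = 0.00023). PDGFRB went from 1.27, 1.52 and 1.55 to 2.20, 2.95 and 2.38 CPM (0.79, SE 0.150, adjusted p = 0.000458), from 62 to 64 reads per control library and from 138 to 165 reads per inhibitor library. These last 2 genes, the scarcest of the PDGF group in ACHN, had the largest changes of the 9 in this line.

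Set side by side, the PDGF ligands and PDGFRB, 5 of 5, were called lower in mimic-treated A-498 and higher in inhibitor-treated ACHN. Of the 4 VEGF family genes, 0 were called so. Among the 16708 genes tested in both lines, 10.5% were called in these opposite directions, and 2.80% were called higher in both. The 2 lines share no library. The changes in A-498 and ACHN were -0.75 and 0.48 in PDGFA, -0.33 and 0.28 in PDGFB, -0.45 and 0.19 in PDGFC, -1.51 and 0.75 in PDGFD and -1.51 and 0.79 in PDGFRB. The size was not tested between lines, since line, oligonucleotide and direction of the perturbation change together.

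**Figure D4:**
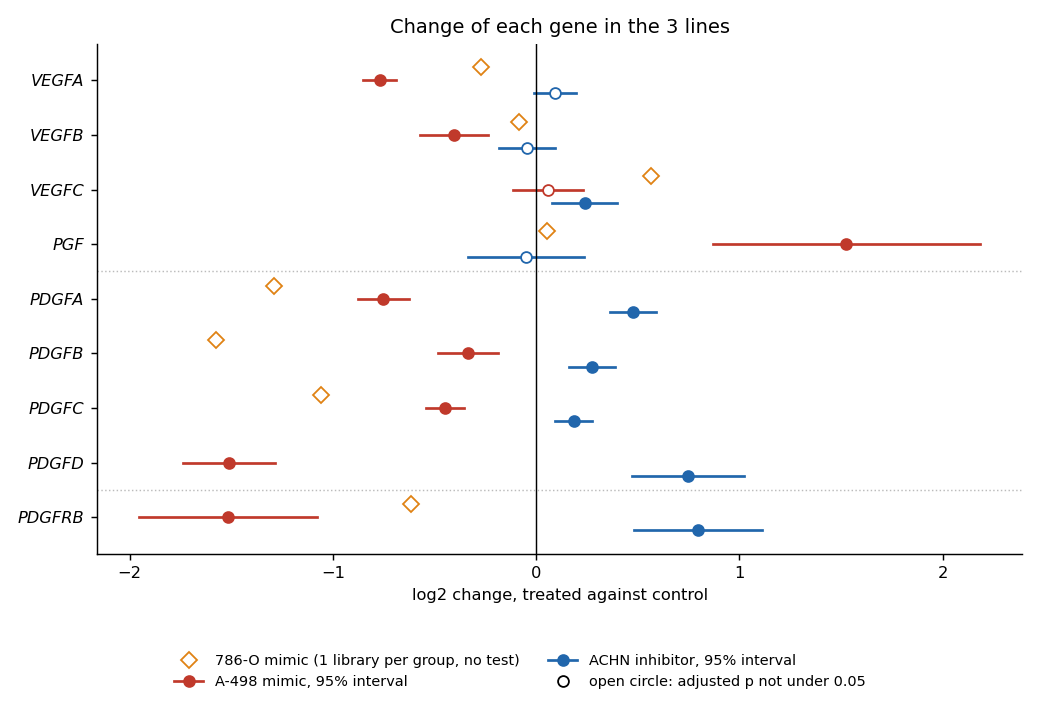
Log2 change of each gene with the mimic in 786-O (diamonds, 1 library per group, no test) and A-498 (red) and with the inhibitor in ACHN (blue), with 95% intervals where there are replicates and open circles where the adjusted p was not under 0.05. The PDGF genes lie left of 0 with the mimic, between -1.58 (PDGFB in 786-O) and -0.33 (PDGFB in A-498), and right of 0 with the inhibitor, between 0.19 (PDGFC) and 0.79 (PDGFRB), while the VEGF family genes show no shared direction.

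Of the 5 genes with a seed match, VEGFA, PDGFB, PDGFC, PDGFD and PDGFRB all fell with the mimic in A-498, and all but VEGFA rose with the inhibitor in ACHN. Of the 4 genes without a match, PDGFA fell and rose in the same way, at -0.75 and 0.48 on the log2 scale. VEGFB fell in A-498 and was not called in ACHN, VEGFC rose in ACHN and was not called in A-498, and PGF rose in A-498. The genes with a match also had the longer 3′ UTRs, 1924 to 2636 nt against 388 to 1306 nt. A match and a long UTR therefore cannot be told apart in these 9 genes. In A-498 the genes with an 8mer, printed above, changed by -0.77 (VEGFA) and -0.45 (PDGFC), and those with a 7mer-m8 by -0.33 (PDGFB), -1.51 (PDGFD) and -1.51 (PDGFRB), and differences between genes were not tested. Gene-level counts do not separate the VEGFA transcripts that carry the match from those that do not.

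In 786-O there was 1 library per group, so differences have no replicate check, and intervals cover counting error only. A ratio past 1.5-fold was used as the mark, which 19.0% of 20370 genes passed downwards and 15.7% upwards. Of the 8 genes with at least 10 reads, 4 passed it downwards and 0 upwards, and the median log2 ratio was -0.44, against -0.00595 over all genes. PDGFB went from 54.3 CPM in the control to 18.2 CPM in the mimic library, a ratio of 0.335 (95% counting interval 0.309 to 0.363). PDGFA went from 18.8 to 7.64 CPM (0.408, interval 0.358 to 0.463) and PDGFC from 82.9 to 39.7 CPM (0.479, interval 0.453 to 0.507). These 3 ligands were well past the mark. PDGFRB went from 5.23 to 3.40 CPM (0.649, interval 0.526 to 0.80), close to the mark. PDGFD had 0 reads in the control and 1 read in the mimic library, so no ratio is given. VEGFA went from 94.4 to 78.2 CPM (0.829, interval 0.792 to 0.867) and VEGFB from 30.7 to 29 CPM (0.943, interval 0.873 to 1.02). PGF had 1.59 and 1.65 CPM (1.04, interval 0.739 to 1.46). VEGFC was the one gene clearly higher in the mimic library by count, at 34.5 against 23.3 CPM (1.48, interval 1.37 to 1.60), just short of the mark.

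The mimic was used in both 786-O and A-498, so the difference between their responses was tested as an interaction in edgeR, with the single 786-O libraries assumed to vary like those of A-498. Its SE and p hold no spread of 786-O itself. Under that assumption the 8 genes that could be compared were called, 4 with the lower and 4 with the higher value in 786-O, beside 29.6% of 22587 genes in either direction, and with a biological coefficient of variation fixed at 0.2 for both lines 0 of the 8 were called (adjusted p from 0.308 to 0.972). The values are therefore given as conditional on the A-498 spread. The log2 change of PDGFB was more negative in 786-O (difference -1.2, SE 0.113, adjusted p = 9.13e-08), as were those of PDGFC (-0.57, adjusted p = 2.40e-05) and PDGFA (-0.50, adjusted p = 0.00561). PGF, which rose in A-498, differed by -1.43 (adjusted p = 0.0147). The changes of VEGFA (0.54, SE 0.0713, adjusted p = 6.09e-06) and PDGFRB (0.94, SE 0.275, adjusted p = 0.0136) were less negative in 786-O than in A-498. VEGFB (0.36, adjusted p = 0.0313) lost its call without A-498 mimic replicate 1 or 2 (0.31 and 0.33, adjusted p = 0.135 and 0.111) and with library-size scaling (0.27, adjusted p = 0.116).

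The receptors that these ligands bind were scarce in all 3 lines. KDR, the main signalling receptor for VEGFA, had 0 reads in all 6 ACHN libraries, 0.0186 to 0.122 CPM in A-498, and 0.584 CPM in the control and 0.156 CPM in the mimic library of 786-O. FLT1 was at 0.135 CPM or less, PDGFRA at 0.175 CPM or less and FLT4, the VEGFC receptor, at 0.308 CPM or less in every library. The co-receptors NRP1 and NRP2 were abundant. NRP1 went from 335 and 328 to 194 and 191 CPM with the mimic in A-498 (log2 change -0.78, SE 0.0362, adjusted p = 3.83e-10) and from 174, 184 and 183 to 240, 223 and 237 CPM with the inhibitor in ACHN (0.37, SE 0.0442, adjusted p = 3.62e-06). In 786-O it was at 243 CPM in the control and 287 CPM in the mimic library. NRP2 rose in both, by 0.21 in A-498 (adjusted p = 0.000148) and by 0.12 in ACHN (adjusted p = 0.0277), and stood at 186 CPM in the control and 133 CPM in the mimic library of 786-O. Of the 8 other ligands, receptors and co-receptors listed, 5 were tested in A-498 (1 lower, 2 higher) and 4 in ACHN (0 lower, 2 higher). Among all genes tested, the called shares in A-498 were 27.0% lower and 25.5% higher. Those of ACHN were 14.4% and 17.3%. Beside NRP2, PDGFRL was called higher in A-498 (log2 change 0.52, adjusted p = 0.00103 in edgeR). In 786-O it was at 0.180 CPM in the control and 1.59 CPM in the mimic library. In ACHN it averaged 1.01 CPM in control and 0.691 CPM in inhibitor libraries, with overlapping groups.

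Proteins that process the ligands were followed next. Of 7 listed, 3 fell and 2 rose in A-498, and of 6 tested in ACHN 4 rose and 0 fell. Among all genes tested, 27.0% were called lower and 25.5% higher in A-498, and 17.3% higher and 14.4% lower in ACHN. ADAMTS3 and CCBE1, which together activate VEGFC, both fell with the mimic and rose with the inhibitor. ADAMTS3 went from 16.9 and 16.8 to 6.00 and 5.58 CPM in A-498 (-1.54, adjusted p = 1.08e-09) and from 159, 158 and 168 to 229, 225 and 239 CPM in ACHN (0.51, adjusted p = 5.52e-08). CCBE1 changed by -0.63 (adjusted p = 3.90e-06) and 0.15 on the log2 scale. PLAT, the tissue plasminogen activator that cuts PDGFC, rose under both treatments, from 5.32 and 5.49 to 11.3 and 11.7 CPM in A-498 (1.09, adjusted p = 9.08e-08) and from 22.2, 21.4 and 21.3 to 40.9, 37.7 and 36.4 CPM in ACHN (0.83, adjusted p = 2.20e-09). PLAU, the urokinase that cuts PDGFD, rose by 0.66 in A-498 (adjusted p = 0.000158 in edgeR). In ACHN it averaged 1009 CPM in control and 952 CPM in inhibitor libraries, and in 786-O it went from 116 to 87.8 CPM. PCSK5, a proprotein convertase, had a log2 change of -0.84 in A-498 (adjusted p = 2.08e-10 in edgeR) and was at 0.190 CPM or less in ACHN. FURIN rose by 0.21 in ACHN (adjusted p = 0.00796 in edgeR) and averaged 26.3 CPM in control and 25.8 CPM in mimic libraries of A-498.

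Inside the cell, 11 of the 24 tested signalling genes were lower and 7 higher in A-498, and 3 were lower and 7 higher in ACHN. Calls over all genes tested came to 27.0% downwards and 25.5% upwards in A-498, against 14.4% downwards and 17.3% upwards in ACHN. The median log2 change of the signalling list was -0.09 in A-498 and 0.06 in ACHN. STAT3, a transcription factor downstream of many receptors, went from 316 and 305 to 166 and 166 CPM in A-498 (-0.90, adjusted p = 1.19e-10), from 204, 212 and 205 to 273, 284 and 288 CPM in ACHN (0.44, adjusted p = 1.42e-07) and from 211 to 67.8 CPM in 786-O. NRAS, a RAS GTPase, fell by 1.26 in A-498 (adjusted p = 2.60e-11). The adaptor SHC1 rose by 0.57 in A-498 (adjusted p = 1.17e-08). The regulatory subunit PIK3R1 (0.41) and the kinase MAP2K1 (0.30) also rose there. In ACHN, the docking protein GAB1 rose by 0.45 (adjusted p = 5.99e-06), whereas the phosphatase PTPN11 fell by 0.23 (adjusted p = 5.02e-05), the kinase AKT1 by 0.18 and the kinase PIK3CB by 0.20 (adjusted p = 0.0363).

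The feedback inhibitors, which damp receptor tyrosine kinase signalling, rose with the mimic in A-498, 5 of 5, with a median log2 change of 0.46. Among all genes tested there, 25.5% were called higher. DUSP6, the phosphatase of the MAP kinases, went from 1.91 and 1.48 to 4.36 and 4.65 CPM (1.41, SE 0.142, adjusted p = 1.12e-06). SPRY4 rose by 0.75 (adjusted p = 1.88e-05) and SPRED1 by 0.46 (adjusted p = 5.71e-06). In 786-O, 4 of the 5 were past 1.5-fold higher in the mimic library, as were 15.7% of all genes. Examples are CBL, a ubiquitin ligase for activated receptors, at 327 against 154 CPM, and SPRED1 at 64.7 against 25.8 CPM. In ACHN, where 17.3% of all genes tested were called higher and 14.4% lower, the list was split. It had 2 higher (DUSP6 by 0.37 and SPRY2 by 0.26), 2 lower (CBL, -0.31, and SPRED1, -0.17) and 1 not called. DUSP6 and SPRY2 therefore rose under both treatments, as did 2.80% of the genes tested in both lines.

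**Figure D5:**
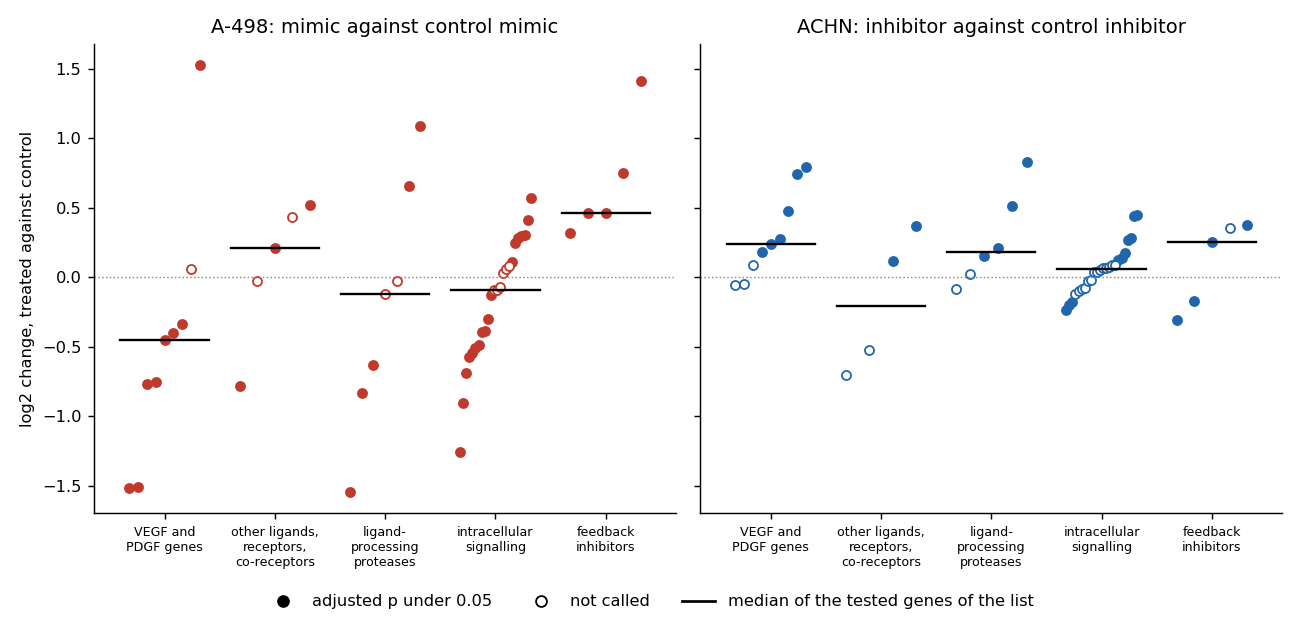
Log2 change with the mimic in A-498 (left) and with the inhibitor in ACHN (right) of the tested genes of each list, filled where the adjusted p was under 0.05, with a bar at the median. The VEGF and PDGF genes have medians of -0.45 and 0.24, the signalling genes lie around 0 at -0.09 and 0.06, and the feedback inhibitors have medians of 0.46 and 0.26.

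Some genes followed the PDGF genes closely over the 3 lines. The likeness was the Euclidean distance between the log2 changes in 786-O, A-498 and ACHN, over 9326 or 9327 genes with a value in all 3 lines, and it is a description only. Nearest to PDGFC was ZFP91 at a distance of 0.0461 (log2 changes -1.05, -0.40 and 0.19), followed by MED24 (0.0694). Nearest to PDGFA were ATAD2B (0.0568), CDC23 (0.0708) and MTSS2 (0.0849). PDGFB stood further from its neighbours ZBTB47 (0.147), PDHX (0.217) and FRMD8 (0.233), and PDGFRB from SGK1 (0.149), IL10RB (0.189) and TMEM178B (0.204). PDGFD has no value in 786-O and was not compared.

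Since PDGFRB is also a pericyte and fibroblast gene, markers of other cell types were read beside it. The 5 fibroblast or pericyte markers summed to 38.8–39.6 CPM in the A-498 controls and 40.4–40.9 CPM with the mimic, where PDGFRB fell, and LUM was at 3 reads or fewer in every A-498 library. Within that sum, RGS5 went from 4.90 and 5.37 to 11.4 and 10.4 CPM (log2 change 1.09, adjusted p = 2.23e-07 in edgeR) and ACTA2 from 31.6 and 31.9 to 27.2 and 27.6 CPM (-0.21, adjusted p = 0.00422). In ACHN they summed to 56.1–57.8 CPM in control and 56.2–61.5 CPM in inhibitor libraries, where PDGFRB rose. Of the 4 markers tested there, 1 was called higher and 0 lower. DCN, a scarce part of that sum, averaged 0.264 CPM in control and 0.568 CPM in inhibitor libraries. In 786-O they went from 25.3 to 17.1 CPM, with LUM at 17.6 and 6.17 CPM, RGS5 at 4.72 and 8.07 CPM, and DCN at 3 reads or fewer. The 5 endothelial markers summed to 2.81–3.49 CPM in control and 3.21–3.33 CPM in mimic libraries of A-498, to 0.35–0.593 and 0.808–1.12 CPM in control and inhibitor libraries of ACHN, and to 10.8 and 13.0 CPM in 786-O, where TIE1 made up 10.1 and 12.1 CPM. The 1 endothelial marker tested in ACHN was called higher (log2 change 1.54), and TIE1 averaged 0.190 CPM in control and 0.561 CPM in inhibitor libraries there. The 5 leukocyte markers summed to 0.698 CPM or less in every library. Of the renal epithelial tumour markers, 4 of 7 were called higher and 1 lower in A-498, and 3 of the 5 tested were lower and 0 higher in ACHN. Over all genes tested, 25.5% were called higher and 27.0% lower in A-498, and 17.3% higher and 14.4% lower in ACHN. The part of the renal markers in the changes of the VEGF and PDGF genes was not tested.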

How the data were processed

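RNA-seq of 12 libraries was analysed from the raw counts per gene deposited by the authors. According to the study's methods and labels, ribosomal RNA was depleted, stranded libraries were sequenced as read pairs, and reads were aligned to GRCh38 with HISAT2. Counts came from HTSeq-count in its strict intersection mode with Ensembl v87, and the versions of these programs are not given in the sources used here. The deposited comparison tables hold the authors' own DESeq2 fold changes and p-values and were not used. Of 58051 genes, 56948 (98.1%) had a symbol in GENCODE v44. The HTSeq-count summary lines, which together hold the reads assigned to no single gene, made up 37.2% to 48.0% of each total and were left out. Strand-aware counting is named by the count tables, and every annotated gene that overlaps one of the 9 lies on the opposite strand.

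Each line was fitted by itself in edgeR 4.0.16 (R 4.3.3, limma 3.58.1), with TMM scaling, filterByExpr by group, the two-sided quasi-likelihood test and Benjamini-Hochberg adjustment over all genes tested, called at 0.05. A-498 and ACHN had biological coefficients of variation of 3.83% and 5.25%. For 786-O, log2 ratios of CPM with a prior count of 2 were taken for genes with at least 10 reads in both libraries together. The fits were tested on simulated data. Counting intervals are exact (95%) and, like floors of 3 counts, cover counting error only, since no molecular identifiers were described. Within the A-498 and ACHN groups no library was a copy of another, since replicate pairs differed beyond sampling noise (chi-square over its degrees of freedom 3.87 to 12.2). Pairs across groups, and the 786-O libraries, were not compared in this way. RPKM used TMM factors over the 6 control libraries and exon lengths of GENCODE v44. The printed 3′ UTR stretches were read from the GENCODE v44 transcript sequences. Of the matches in them, 5 of 5 were found again at their positions in the GRCh38 sequence.

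The 9 genes, the gene lists and the tests were chosen with earlier results of these data known. Genes named besides the 9 and the markers were, per list and fit, up to 3 called genes with the largest fall and up to 3 with the largest rise, and the 3 nearest genes by distance among genes whose average log2 CPM reached 3. KDR, FLT1, FLT4 and PDGFRA were added for their role or after their values were seen. The same holds for CCBE1, PLAU, PCSK5, PDGFRL and SPRED1 in ACHN, FURIN and SPRY2 in A-498, NRP1 and STAT3 in 786-O, and markers named singly. Some genes that this rule names are not reported here. Alternatives were library size in place of TMM, DESeq2 1.42.0, no filter on low counts, another prior count, a fixed spread, a replicate block and leaving out each library.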

Additional observations from a re-analysis of the deposited data

Results flagged for a closer look

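The mimic responses of 786-O and A-498 were compared by an edgeR interaction on the 6 mimic and control mimic libraries, which called each of the 8 genes, of 9, that could be compared (adjusted p under 0.05). These calls assume that the single 786-O libraries vary like those of A-498, and 0 of the 8 passed once the coefficient of variation was set to 0.2. The change in 786-O minus that in A-498, on the log2 scale, was 0.54 for VEGFA (adjusted p = 6.09e-06), 0.36 for VEGFB (adjusted p = 0.0313), 0.55 for VEGFC (adjusted p = 0.00201) and 0.94 for PDGFRB (adjusted p = 0.0136). It was -1.43 for PGF (adjusted p = 0.0147), -0.50 for PDGFA (adjusted p = 0.00561), -1.2 for PDGFB (adjusted p = 9.13e-08) and -0.57 for PDGFC (adjusted p = 2.40e-05). VEGFB was also no longer called when scaled by library size, or without A-498 mimic replicate 1 or 2.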

How the results depend on the processing

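The counts of the 9 genes called, 7 lower and 1 higher in A-498, were the same under all 7 alternatives, and the 4 PDGF ligands and PDGFRB kept their direction and their call in A-498 and ACHN under every alternative run in those lines. The call for VEGFC in ACHN was lost when any of 3 single libraries was left out, so 5 to 6 genes were called higher there. VEGFC in A-498, not called, ranged from -0.025 to 0.12 without single libraries (-0.014 without control replicate 3 and -0.025 without mimic replicate 1), and PGF in ACHN, not called, from -0.16 to 0.11 (0.11 without control replicate 2). VEGFB was called higher in A-498 than in ACHN controls without A-498 control replicate 3 (0.18, edgeR adjusted p = 0.0364). Scaling by library size alone, 4352 genes were lower and 6191 higher in A-498 (41.3% of calls lower, against 51.4%), 3931 had a more negative and 2796 a more positive change in 786-O than in A-498 (58.4% of calls negative, against 44.4%), the difference for VEGFB was no longer called (0.27, edgeR adjusted p = 0.116, and likewise 0.31 and 0.33 with adjusted p of 0.135 and 0.111 without A-498 mimic replicate 1 or 2), and in 786-O 1 of the 9 genes, VEGFC, passed 1.5-fold upwards. With no filter on low counts, 7090 genes in 786-O were past 1.5-fold lower and 5471 higher, as more genes were counted. With the coefficient of variation fixed at 0.2, the interaction called 182 genes more negative and 99 more positive, against 2972 and 3723, and 0 and 0 of the 9. Without single A-498 libraries it called 2437 to 4219 genes more negative and 2409 to 4252 more positive, with 4 and 3 to 4 of the 9. The replicate number as a block in ACHN gave 2638 genes lower and 3125 higher, against 2578 and 3102, and changed no call among the 9. Same-numbered libraries correlated at 0.41, -0.15 and -0.01 in their deviations from the group means. Deviations from a mean of 3 libraries depend on each other, so these values cannot show whether the libraries were paired. No paired analysis was possible in 786-O and A-498 because their groups share fewer than 2 numbers. DESeq2 called 4420 genes lower and 3500 higher in A-498 and 2460 and 2666 in ACHN. PGF in A-498, with 14 to 58 reads per library, is the called gene that depth limits most.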
